A study of Rattus norvegicus with 12 samples.

Results

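No gene passed the test for a change with FGF18 in rat chondrosarcoma (RCS) chondrocytes that lack FGFR3 and FGFR4, when 3 libraries with FGF18 were compared with 3 libraries with vehicle. Of 7378 genes tested, 0 were higher (0%) and 0 were lower (0%) at a false discovery rate (FDR) under 0.05, and the lowest FDR was 0.622 (edgeR quasi-likelihood test with Benjamini-Hochberg adjustment, fitted on all 12 libraries of the series). The count of 0 depended on the fit: with only these 6 libraries 2 genes without a symbol were lower, and with edgeR's likelihood-ratio test 3 genes were lower, *Alb* among them. A looser filter at 1 CPM gave 1 lower gene, and no filter on low counts 9 higher and 11 lower. At an unadjusted p under 0.05 there were 478 genes (6.48%), of which 235 were higher and 243 lower. The genes that leaned most included the FGF target *Etv5* upward and the albumin gene *Alb* downward. For 5140 genes (69.7%) the 95% interval of the change lay within a 2-fold change in either direction.

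The comparison holds 6 of the 12 libraries of the series, chosen from the labels as the FGFR3/4KO libraries with FGF18 and those without it. RCS cells are chondrocytes of a line that grew out of a rat chondrosarcoma, and the FGFR3/4KO cells are a single clone in which both receptor genes were disrupted with CRISPR/Cas9, so that the knockout is represented by 1 clone. FGF18 was given overnight, at a dose that the labels state as 50 µg/ml and the methods of the study in nanograms per ml, and the control cells received vehicle and are labelled untreated. The other 6 libraries are unedited RCS (WT) with the same pair of treatments, 3 each, and show which genes respond to FGF18 when the receptors are present. They also entered the fit, so that the choice of genes tested and the spread behind each test rest on all 12 libraries. RNA was counted by QuantSeq, which reads the 3′ end of each transcript, so that a count stands for transcripts and is little affected by their length. The replicates are described as biological replicates of cultures of a line, so p-values measure the spread between these cultures.

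FGF18 is a ligand of the FGF receptors that slows chondrocyte proliferation in growing cartilage, where FGFR3 is the main receptor. An activated FGF receptor phosphorylates the adaptor encoded by *Frs2*, which recruits the Ras activators encoded by *Sos1* and *Sos2* and so switches on ERK. ERK in turn raises transcription of the ETS factors *Etv4* and *Etv5* and of feedback inhibitors, and in chondrocytes FGF signalling is also known for lysosome biogenesis through the transcription factors TFEB and TFE3, which bind short CLEAR sites near lysosomal genes.

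Gene symbols were at hand for 1395 of the 7378 genes tested, and only these are discussed by name. *Fgfr3* and *Fgfr4* are not among them, so the loss of the targeted genes was not checked here. The cartilage identity of the cells could be checked only on the 6 chondrocyte genes with a symbol that were tested. *Sox9*, the transcription factor that defines chondrocytes, stood at 1504 to 1986 CPM (reads per 1000000 reads on genes after TMM scaling) in the vehicle libraries and at 1896 to 2055 CPM with FGF18. *Col11a2*, which encodes a cartilage collagen chain, stood at 838.4 to 1042 CPM and at 841.0 to 1023 CPM. Of the other listed chondrocyte genes, *Fmod* averaged 969 CPM over the 6 libraries. *Scin*, *Matn2* and *Chad* were far lower, at 16.2, 18.2 and 4.81 CPM, and *Epyc* had too few reads to be tested. Of the listed markers of muscle, fat, nerve and epithelial cells, 1 was tested, the nerve, fat and cartilage gene *S100b*, with 1084 ± 187 CPM in the vehicle group and 980 ± 209 CPM in the FGF18 group (SD over 3 libraries each). The nerve gene *Snap25* had too few reads to be tested, and no marker of blood or endothelial cells had a symbol here.

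Depth limited what could be seen. The vehicle libraries held 674525, 373964 and 925006 reads on genes, and the FGF18 libraries 840149, 1140741 and 1115851. The FGF18 libraries were deeper on average, but the groups overlapped (exact two-sided permutation test, p = 0.2, where the smallest p that 3 against 3 allows is 0.1). Counts of 3 reads, the most that a count of 0 allows, correspond to 8.50 CPM in vehicle replicate 2 and to 2.66 CPM in FGF18 replicate 2, which covers counting error only.

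A pair of libraries stood apart from the rest. Vehicle replicate 2 was the shallowest and lay at -39.1 on the first principal component of the 6 libraries (35.1% of the variance), where the other 5 lay between 1.67 and 18.3. FGF18 replicate 1 lay at -30.6 on the second component (25.8% of the variance), and its counts differed from those of each of its replicates by a chi-square of 4.92 per degree of freedom, against 2.06 between the other FGF18 libraries and 1.58 to 1.90 among the vehicle libraries. On the first component the FGF18 libraries lay at 6.99 to 18.3 and the vehicle libraries at -39.1 to 4.28, so that the groups did not overlap, and the deeper libraries were again those with FGF18 on average; the part of depth in this was not tested. On the second component the groups overlapped. Without vehicle replicate 2, without FGF18 replicate 1 and without both, 0 genes passed in each direction in each case. The number with an unadjusted p under 0.05 was then 408, 365 and 285.

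How tightly a response was bounded was asked gene by gene. The estimated change was small for most genes, with a median log2 fold change of 0.01, 25th and 75th percentiles of -0.19 and 0.20, and 1st and 99th percentiles of -0.95 and 0.92. The half-width of the 95% interval had a median of 0.54 on the log2 scale and ran from 0.28 to 1.13 between the 5th and 95th percentiles. Taking the end of each interval that lies farther from 0, the median gene could have changed by at most 1.70-fold. A change of 1.5-fold or more lay outside the interval for 2273 genes (30.8%), and one of 4-fold or more for 7190 genes (97.5%). These intervals were taken gene by gene and do not hold for all genes at once. In an equivalence test, which asks whether the change is smaller than 2-fold and adjusts over all genes, 5455 genes (73.9%) passed at an FDR under 0.05. No interval was given for 22 genes with fewer than 3 reads summed over either group.

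The bound followed the level of the gene. Among the 655 genes under 10 CPM on average in the 6 libraries, 7 intervals (1.07%) lay within a 2-fold change. The share was 42.6% of the 2380 genes from 10 to 30 CPM and 91.4% of the 2393 genes from 30 to 100 CPM. It reached 98.8% of the 1310 genes from 100 to 300 CPM and 99.5% of the 640 genes at 300 CPM or more. Median half-widths fell accordingly from 1.15 in the lowest class to 0.28 in the highest. For most genes under 10 CPM a 2-fold change therefore lay inside the interval at this depth, whereas for genes over 100 CPM it was mostly outside.

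**Figure D1:**
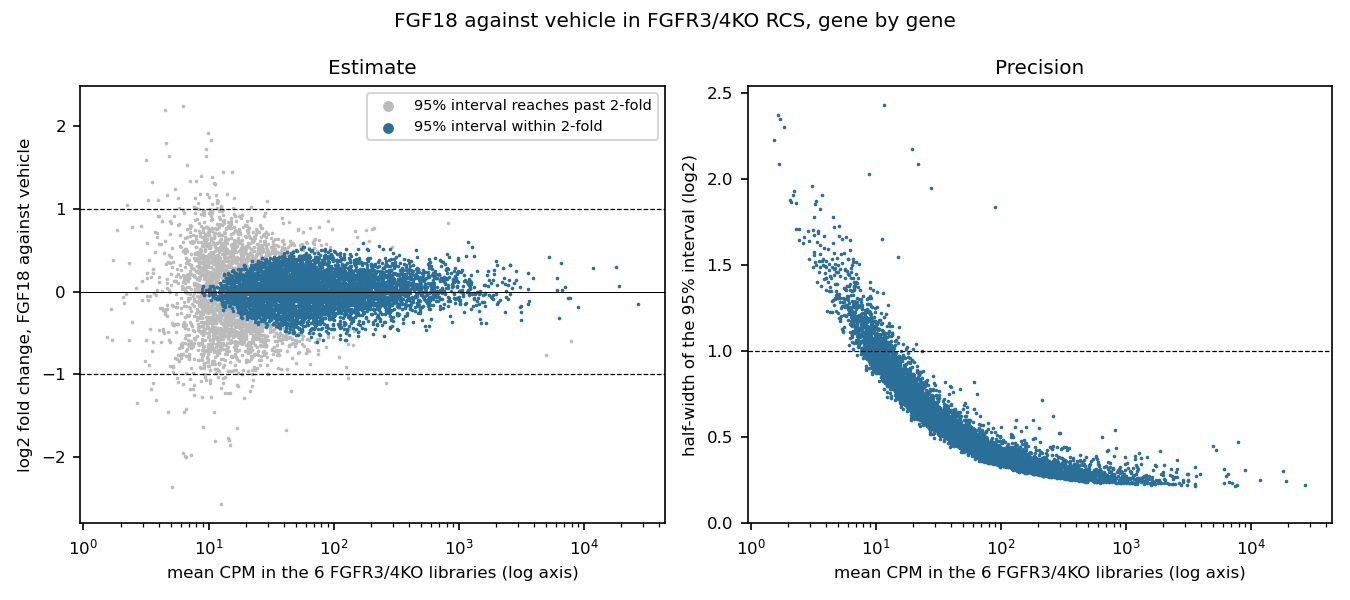
Each point is a gene with an interval. On the left its log2 fold change with FGF18 in FGFR3/4KO RCS and on the right the half-width of its 95% interval (log2) are plotted against its mean CPM in the 6 libraries on a log axis, with dashed lines at a 2-fold change. The half-width narrows from a median of 1.15 under 10 CPM to 0.28 at 300 CPM or more.

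The best bounded genes with a symbol were abundant. *Prelp*, a matrix proteoglycan of cartilage, had 2926, 3184 and 3017 CPM with vehicle and 2969, 3300 and 3208 CPM with FGF18. The groups overlapped, and its log2 fold change of 0.06 had a 95% interval from -0.17 to 0.28. The other 4 of the 5 narrowest intervals were those of *Sod1*, which encodes the cytosolic superoxide dismutase (0.06, from -0.17 to 0.29), *Rpl23*, a ribosomal protein (0.11, from -0.11 to 0.34), *Psmd2*, a proteasome subunit (-0.11, from -0.34 to 0.11), and *Pdap1* (-0.12, from -0.35 to 0.10). In WT RCS *Prelp* fell with FGF18 by 0.68 on the log2 scale, a value outside its FGFR3/4KO interval. The widest intervals belonged to genes with few reads in the knockout. *Dusp1*, an ERK and p38 phosphatase, had 0, 0 and 3 reads with vehicle and 1, 0 and 7 with FGF18, and its interval ran from -1.56 to 3.05. *Hoxd9* and *Cacna1e* were as poorly bounded, from -2.78 to 1.67 and from -1.97 to 2.72.

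The next question was what the genes that respond in WT RCS did in the knockout. The libraries of these comparisons do not overlap. In WT RCS 950 genes were higher (12.9%) and 948 lower (12.8%) at an FDR under 0.05. Over the 950 genes induced in WT RCS, the median log2 fold change was 0.93 there and 0.06 in FGFR3/4KO RCS, where the median over all genes tested was 0.01. Over the 948 inhibited genes it was -0.88 and -0.04. None of either set passed in FGFR3/4KO RCS. The FGFR3/4KO interval left out the WT estimate on the side of the WT change for 787 of the induced genes (82.8%) and 823 of the inhibited genes (86.8%). The same held for 21.8% upward and 23.3% downward of the 5480 genes not called in WT RCS, and this count takes the WT estimates, which were selected by their FDR, as free of error. The interval lay below 50% of the WT log2 change for 389 (40.9%) of the induced and 449 (47.4%) of the inhibited genes, against 8.72% upward and 9.69% downward of the genes not called in WT RCS. The FGF18 effect itself differed between the genotypes for 802 genes (10.9%, interaction test of edgeR, FDR under 0.05). Among them were 351 of the 950 induced and 412 of the 948 inhibited genes. The WT change, by which both sets were chosen, is part of the interaction, so that the choice favours such calls.

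The signs were not evenly split. Of the induced genes, 58.4% had a positive log2 fold change in FGFR3/4KO RCS, where 50.9% of all genes tested did. Of the inhibited genes, 56.0% had a negative one, where 49.1% of all genes did. A p under 0.05 before adjustment in the WT direction was found for 45 of the induced genes (4.74%, where 3.19% of all genes were higher by that rule) and in the opposite direction for 23 (2.42%). Of the inhibited genes, 69 (7.28%, where 3.29% of all genes were lower) had such a p in the WT direction and 22 (2.32%) in the opposite one. All FGF18 libraries lay above all vehicle libraries for 82 of the induced genes (8.63%, against 6.38% of all genes) and below them for 115 of the inhibited genes (12.1%, against 6.29%). Over all genes tested, the groups did not overlap in one direction or the other for 935 (12.7%). No test was made of these shares, and the medians were small. Without vehicle replicate 2, the median over the inhibited genes was -0.00225, where the median over all genes was 0.027. With a filter at 1 CPM these medians were 0.01 and 0.0356. The median over the inhibited genes thus stayed below that over all genes in both fits.

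**Figure D2:**
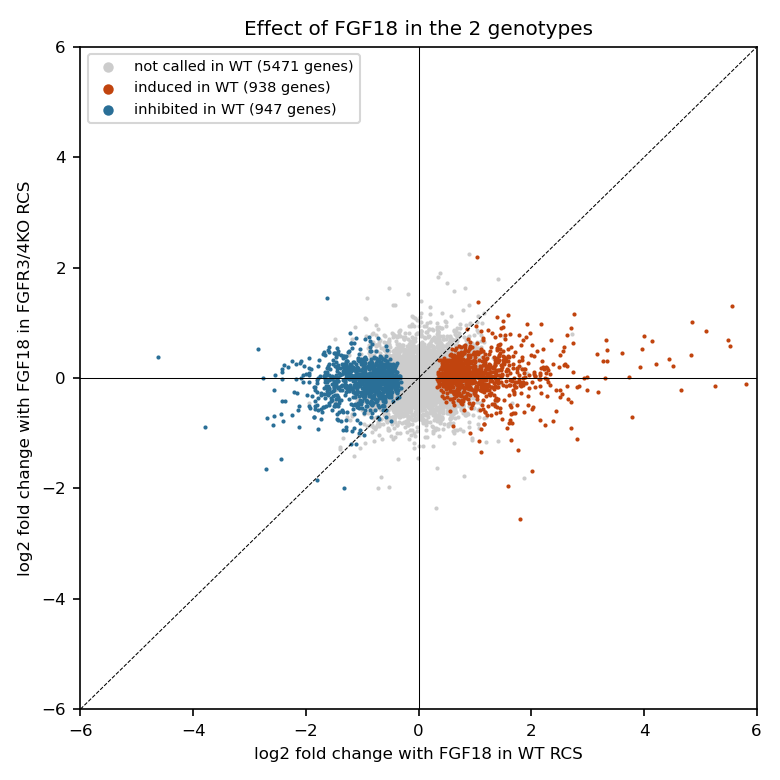
Each point is a gene with an interval, with its log2 fold change with FGF18 in WT RCS on the horizontal axis and in FGFR3/4KO RCS on the vertical axis, coloured by its call in WT RCS. The dashed line marks equal effects, and 4 genes lie outside the axes. The induced and inhibited genes spread along the horizontal axis and stay near 0 on the vertical one, with medians of 0.06 and -0.04.

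The lists of genes that follow are to be read against all genes tested, of which 3.19% were higher and 3.29% lower at an unadjusted p under 0.05, 50.9% had a positive log2 fold change and 69.7% an interval within a 2-fold change.

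Of the receptor-proximal genes with a symbol, 4 were tested, and 0 had an unadjusted p under 0.05. The adaptor gene *Frs2* averaged 152 ± 13.5 CPM without and 135 ± 9.36 CPM with FGF18 (SD over 3 libraries each), and its log2 fold change of -0.15 had an interval from -0.48 to 0.18. *Sos2* was at -0.16 (from -0.75 to 0.43). The cell-surface proteoglycan genes *Gpc4* and *Sdc2*, whose heparan sulphate chains can present FGF ligands, were at -0.05 and -0.00, and all 4 intervals lay within a 2-fold change.

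Among the targets of FGF and ERK signalling, 11 were tested, 2 had an unadjusted p under 0.05 upward and 0 downward, and the median log2 fold change was 0.02, against 1.67 in WT RCS. These targets were poorly bounded, with 4 of the 10 that have an interval bounded within a 2-fold change. Some members, such as *Vgf* and *Dusp1*, passed the filter on low counts only through the WT FGF18 libraries, which favours a high WT median. *Etv5*, an ETS transcription factor switched on by ERK, was the first of the 2 with a low p. It had 59.8, 53.8 and 54.8 CPM with vehicle and 104, 68.2 and 119 CPM with FGF18. All 3 FGF18 libraries lay above all vehicle libraries, with FGF18 replicate 2 the closest to them. The log2 fold change was 0.78 (standard error 0.22, interval from 0.33 to 1.23, unadjusted p = 0.00143, FDR = 0.622, edgeR), so that it did not pass. In WT RCS *Etv5* went up from 10.9 ± 2.49 to 70.6 ± 12.5 CPM (SD over 3 libraries each), and this log2 fold change of 2.64 differed from that in FGFR3/4KO RCS (interaction -1.86, FDR = 0.00126, edgeR). With any 1 of the 6 libraries left out, the unadjusted p was at most 0.0155, without FGF18 replicate 3 (edgeR). As the groups did not overlap, leaving out 1 library could hardly turn the sign, and *Etv5* was chosen for its low p.

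The second was *Phlda1*, an immediate response gene of growth factor signalling. It had 121, 105 and 122 CPM with vehicle and 166, 120.5 and 190 CPM with FGF18, and the groups overlapped through FGF18 replicate 2. Its log2 fold change of 0.43 (interval from 0.10 to 0.77, unadjusted p = 0.0138, FDR = 0.752, edgeR) stood against one of 3.18 in WT RCS. Without FGF18 replicate 3, the estimate was 0.30 with an unadjusted p of 0.103 (edgeR). The other targets gave no such lean. *Cdkn2b*, which encodes the cell cycle inhibitor p15, had 35.2, 25.5 and 41.6 CPM with vehicle and 29.003, 41.6 and 36.8 CPM with FGF18. Its log2 fold change was 0.02 with an interval from -0.55 to 0.58, where WT RCS showed 3.73. *Cdkn1a*, which encodes the inhibitor p21, was the best bounded target at 0.02 (from -0.26 to 0.30), and *Gadd45a*, a DNA damage response gene, stood at 0.25 (from -0.25 to 0.75). *Vgf*, a secreted neuropeptide precursor, rose in WT RCS from 0 reads in each vehicle library to 22, 19 and 25. In the knockout it had 1, 0 and 0 reads with vehicle and 0 in each FGF18 library. Both group sums were under the floor of 3 reads, and it has no interval.

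The remaining genes with the largest rises and falls in WT RCS were bounded to different degrees. *Scin*, which encodes the actin-severing protein scinderin, had 24.5, 22.7 and 13.1 CPM with vehicle and 19.8, 8.86 and 8.29 CPM with FGF18. Its log2 fold change was -0.71 (from -1.67 to 0.25), against 3.79 in WT RCS, and the upper end of the interval was far below the WT value. *Flot1*, a membrane raft protein gene, was at -0.00 (from -0.83 to 0.83), against 2.94. Of the largest falls, *Foxm1*, a transcription factor of the G2 and M phases, was the best bounded at -0.16 (from -0.48 to 0.16), against -1.86 in WT RCS. *Tdrd5* was at 0.23 (from -0.32 to 0.78) and *Arhgap31*, which encodes a GTPase-activating protein, at -0.23 (from -1.27 to 0.82), against -2.39 and -2.56. The glycosyltransferase gene *Mgat5* at -0.69 (from -1.96 to 0.58) and the DNA junction nuclease gene *Gen1* at -0.73 (from -1.92 to 0.46) rest on 2 to 11 reads per library and are open to changes of more than 2-fold.

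Of the genes of the lysosome, 18 were tested, 2 had an unadjusted p under 0.05 upward and 0 downward, and 12 had a positive log2 fold change. Their median was 0.07, against 0.56 in WT RCS, where 11 of the 18 passed upward, and 15 of the 18 intervals lay within a 2-fold change. *Cst3*, which encodes the cathepsin inhibitor cystatin C, had 362, 334 and 390 CPM with vehicle and 488, 463 and 460 CPM with FGF18. The groups did not overlap, and the 3 FGF18 libraries were close to each other. Its log2 fold change of 0.37 (standard error 0.12, interval from 0.12 to 0.62, unadjusted p = 0.00548, FDR = 0.703, edgeR) was bounded under 2-fold. *Cst3* rose by 0.68 in WT RCS, and the effects in the genotypes were not shown to differ (interaction -0.31, FDR = 0.283, edgeR).

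The other lysosomal genes gave a mixed picture. *Mcoln1*, the lysosomal calcium channel, had 21.4, 19.8 and 21.9 CPM with vehicle and 35.6, 31.9 and 26.7 CPM with FGF18. These groups did not overlap either, but the log2 fold change of 0.54 had an interval from -0.03 to 1.11 (unadjusted p = 0.0612, edgeR). *Nagpa*, an enzyme that exposes the mannose 6-phosphate tag of lysosomal hydrolases, was at 0.58 (from 0.03 to 1.13) and stood at 0.30 without FGF18 replicate 1. In contrast *Psap*, the precursor of the saposins, was the best bounded gene of the list, with 1249, 1201 and 1172 CPM with vehicle and 1235, 1195 and 1281 CPM with FGF18. Its log2 fold change was 0.04 (from -0.20 to 0.27), where WT RCS showed 0.76 and the interaction passed (-0.73, FDR = 0.0029, edgeR). *Lamp2*, a main lysosomal membrane protein, was at -0.15 (from -0.70 to 0.41) against 1.25.

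CLEAR sites are shown for genes on each side of that contrast, *Cst3* and *Mcoln1*, whose FGF18 libraries all lay above the vehicle libraries although neither passed, and *Psap* and *Cd164*, whose libraries overlapped. The letters come from a supplementary table of the study that lists 66 lysosomal and autophagy genes. The study had picked them from this same series for a rise with FGF18 in WT cells that the knockout lacked. The genes shown were thus already selected on their response in these data. Of the 66 genes, 10 were tested here by symbol, and 8 of those 10 have a site. Capitals mark the E-box letters CANNTG, and the strand is as the table prints it.
Cst3: ctatCAAGTGatca
Mcoln1: cgctCACGTGaccg
Psap: ccgcCACCTGgccc
Cd164: cagtCAAGTGacaa
The letters CANNTG are in 7 of the 8 sites. The core CAAGTG occurs both in *Cst3* and in *Cd164*, a sialomucin of lysosomes, which stood at 0.07 (from -0.31 to 0.45).

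Of the autophagy and ER-phagy genes, 8 were tested, 0 had an unadjusted p under 0.05, and the median was 0.06, with 7 of the 8 intervals within a 2-fold change. None of the 8 encodes a dedicated ER-phagy receptor, so that the result concerns general autophagy genes. *Sqstm1*, the autophagy receptor p62, was at -0.06 (from -0.42 to 0.29), against 1.07 in WT RCS, and *Atg12*, part of the conjugation system that extends the phagophore, was the best bounded at -0.09 (from -0.40 to 0.21). *Flcn*, which encodes folliculin, was at -0.08 (from -0.81 to 0.65) against 1.79 in WT RCS. *Wipi2*, a phagophore protein, had the largest estimate, 0.54, on 1 to 27 reads per library and an interval from -0.34 to 1.42. Of the genes of insulin, IGF and PI3K to mTORC1 signalling, 6 were tested, 1 had an unadjusted p under 0.05, and 3 of the 6 intervals lay within a 2-fold change. The gene with that p was *Pdpk1*, the kinase that activates Akt, with 14.7 ± 3.47 CPM in the vehicle group and 25.8 ± 9.19 CPM in the FGF18 group (SD over 3 libraries each) and a log2 fold change of 0.85 (from 0.15 to 1.56, FDR = 0.752, edgeR). *Rps6kb1*, which encodes S6 kinase, was at -0.14 (from -0.57 to 0.29).

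Genes of proliferation, which fell in WT RCS, gave no fall that passed in the knockout. Of the 14 genes of mitosis and the cell cycle tested, all 14 fell in WT RCS, with a median log2 fold change of -1.38 there. In the knockout 0 of them had a p under 0.05 before adjustment, the median was -0.08, and 12 of the 14 intervals lay within a 2-fold change. *Cdk1*, the kinase that drives entry into mitosis, had 90.4, 102 and 85.5 CPM with vehicle and 85.7, 87.7 and 81.1 CPM with FGF18. The groups overlapped, and its log2 fold change was -0.10 (from -0.46 to 0.25), against -1.47 in WT RCS. *Spc25*, a kinetochore subunit, was the best bounded at -0.09 (from -0.38 to 0.20), and *Pttg1*, which encodes securin, had the lowest p at 0.27 (from -0.07 to 0.61, unadjusted p = 0.112, edgeR).

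Of the 11 DNA replication genes tested, 9 fell in WT RCS. In the knockout 0 had a p under 0.05 before adjustment, the median was 0.02, and 10 of the 11 intervals lay within a 2-fold change. *Mcm6*, a subunit of the replicative helicase, had 208, 232 and 262 CPM with vehicle and 232, 225 and 220.2 CPM with FGF18. The groups overlapped, with a log2 fold change of -0.06 (from -0.34 to 0.22) against -0.94 in WT RCS. *Rfc3*, a subunit of the clamp loader, was at 0.30 (from -0.03 to 0.64) and at 0.06 without FGF18 replicate 1. *Mcm9* was the exception to the bound, at 0.75 (from -0.18 to 1.68) on 2 to 16 reads per library.

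**Figure D3:**
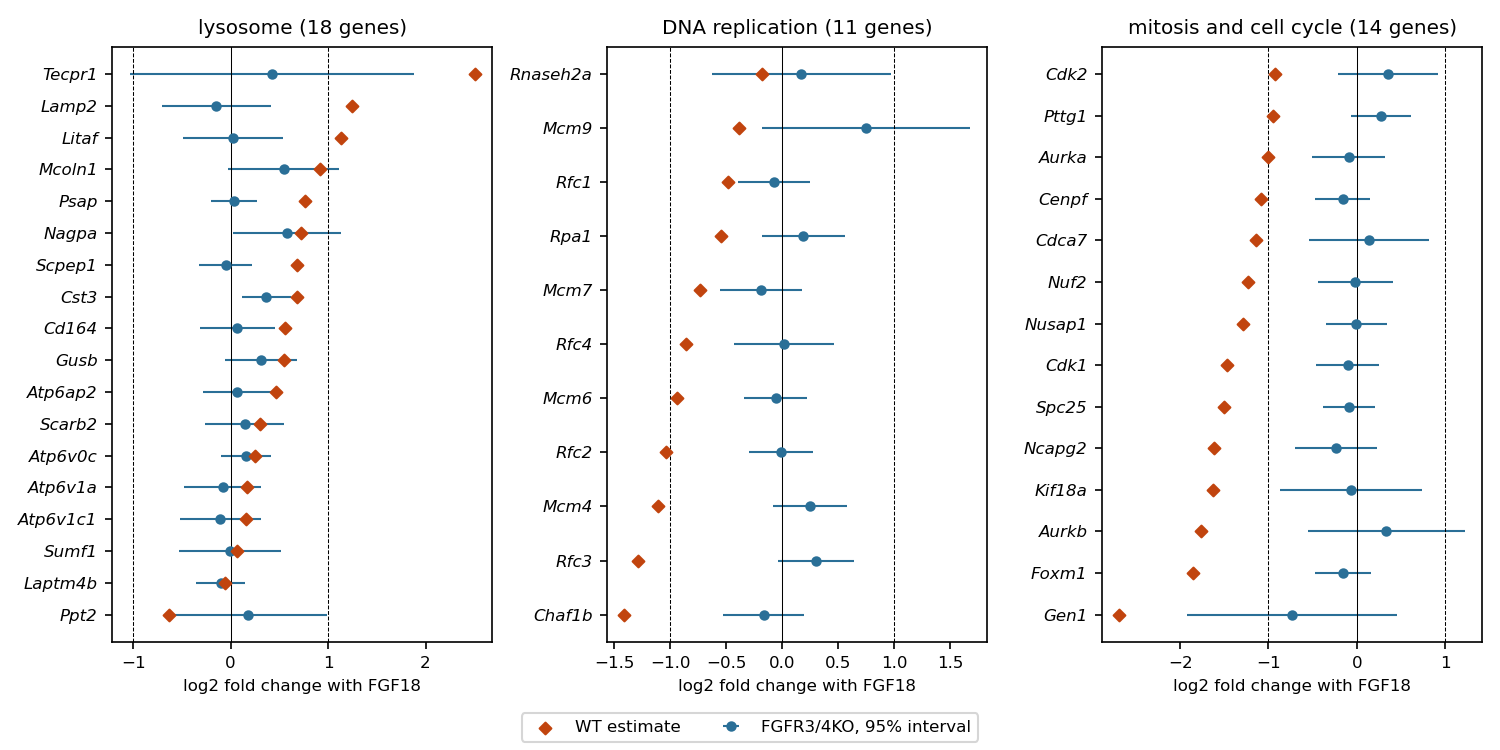
Log2 fold changes with FGF18 of every tested member of 3 gene lists. Circles with bars are the FGFR3/4KO estimates with their 95% intervals, diamonds the WT estimates, and dashed lines a 2-fold change. Of the FGFR3/4KO intervals, 15 of 18, 10 of 11 and 12 of 14 lie within these lines, while the WT estimates of the mitosis genes have a median of -1.38.

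The stress, matrix and housekeeping lists held 2 genes with an unadjusted p under 0.05, both upward. Of 10 genes of the unfolded protein response and chaperones, 1 had an unadjusted p under 0.05, and the median was 0.13. This was *Sdf2l1*, a chaperone cofactor of the endoplasmic reticulum, at 0.29 (from 0.01 to 0.57), which stood at 0.15 without FGF18 replicate 1. *Canx*, which encodes calnexin, was at -0.09 (from -0.35 to 0.18), and *Atf3*, a stress transcription factor, at 0.39 (from -0.25 to 1.03). Of the 6 chondrocyte genes tested, *Chad*, which encodes the matrix protein chondroadherin, had an unadjusted p of 0.0291 (edgeR). Its log2 fold change of 1.64 (from 0.18 to 3.10) rests on 2, 1 and 1 reads with vehicle and 9, 4 and 7 with FGF18. *Sox9* was bounded from -0.10 to 0.38, *Col11a2* from -0.30 to 0.24 and the collagen-binding *Fmod* from -0.05 to 0.48. *Timp2*, an inhibitor of matrix proteases, was at -0.18 (from -0.46 to 0.10) against 0.86 in WT RCS, and 0 of the 4 tested genes of other connective tissue had an unadjusted p under 0.05. The same count of 0 held for the 4 tested genes of cholesterol and fatty acid synthesis, with *Ebp* at 0.27 (from -0.26 to 0.80) and *Lpin1* at -0.48 (from -1.73 to 0.78), for the 2 of glycolysis and hypoxia, with *Pfkl* at 0.05 (from -0.66 to 0.75) and *Pdk1* at 0.28 (from -0.71 to 1.27), and for the 2 ribosomal protein genes.

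The genes with a symbol and the lowest unadjusted p upward, apart from *Etv5*, *Phlda1* and *Cst3*, belong to no common list. *Med13l*, a subunit of the Mediator kinase module, had 132, 153 and 130.4 CPM with vehicle and 246.5, 186 and 186 CPM with FGF18. All FGF18 libraries lay above, and its log2 fold change was 0.58 (standard error 0.15, interval from 0.27 to 0.90, unadjusted p = 0.000748, FDR = 0.622, edgeR). *Orai1*, the pore subunit of store-operated calcium channels, had 58.2, 53.8 and 64.7 CPM with vehicle and 101, 82.4 and 94.0 CPM with FGF18. It did not overlap either, at 0.62 (from 0.23 to 1.01, FDR = 0.646, edgeR), and its unadjusted p was at most 0.0131 when any 1 library was left out. For both genes the WT effect was of the other sign (-0.21 and -0.38, neither of which passed), and the interaction passed (0.79 with FDR = 0.0139 and 1.0 with FDR = 0.0113, edgeR). Both were chosen for their low p in the knockout, whose change is part of the interaction, so that the choice favours such calls.

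A pair of genes without a symbol leaned upward as well. ENSRNOG00000012738.7 had 64.3, 68.0 and 78.9 CPM with vehicle and 162, 100.1 and 104 CPM with FGF18, where replicate 1 was the highest. Its groups did not overlap, and its log2 fold change of 0.75 (from 0.33 to 1.18, unadjusted p = 0.0012, FDR = 0.622, edgeR) was 0.53 without that library. ENSRNOG00000020950.7 was scarce, with 2, 1 and 6 reads with vehicle and 13, 23 and 14 with FGF18. After scaling its groups did not overlap either, and its log2 fold change was 1.83 (from 0.75 to 2.90, unadjusted p = 0.00171, FDR = 0.629, edgeR). The WT effects of both were smaller and did not pass (0.16 and 0.34), and neither interaction passed (FDR = 0.182 and 0.180, edgeR).

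Several of the upward leans rested on FGF18 replicate 1, the library that stood apart. *Tpt1*, which encodes the translationally controlled tumour protein, had 636, 510 and 604 CPM with vehicle and 1923, 635 and 591 CPM with FGF18. Only replicate 1 was high, and the log2 fold change of 0.83 (FDR = 0.646, edgeR) became 0.08 without it. *Tiprl*, an inhibitor of PP2A-type phosphatases, had 349 CPM in that library and 165 and 184 CPM in the others, against 147 to 155 CPM with vehicle, and went from 0.61 to 0.23. *Anapc7*, a subunit of the anaphase-promoting complex, had 253 CPM there and 148 and 155 CPM in the others, against 101 to 120.5 CPM with vehicle. It went from 0.73 to 0.48 and kept an unadjusted p of 0.0155 (edgeR). What set that library apart was not tested.

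The 2 other upward genes with a symbol were scarce. *Hoxd4*, a homeobox transcription factor, had 5, 0 and 3 reads with vehicle and 15, 12 and 20 with FGF18, a log2 fold change of 1.91 (from 0.69 to 3.14, FDR = 0.646, edgeR). It met the filter on low counts only through libraries with FGF18, which favours a rise. *Sat1*, a polyamine acetyltransferase, had 4, 0 and 11 reads and then 9, 20 and 23. Its groups overlapped, and it stood at 1.17 (from 0.26 to 2.07, FDR = 0.752, edgeR), while in WT RCS it rose by 2.76. Of both genes, vehicle replicate 2, the shallowest library, held 0 reads.

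**Figure D4:**
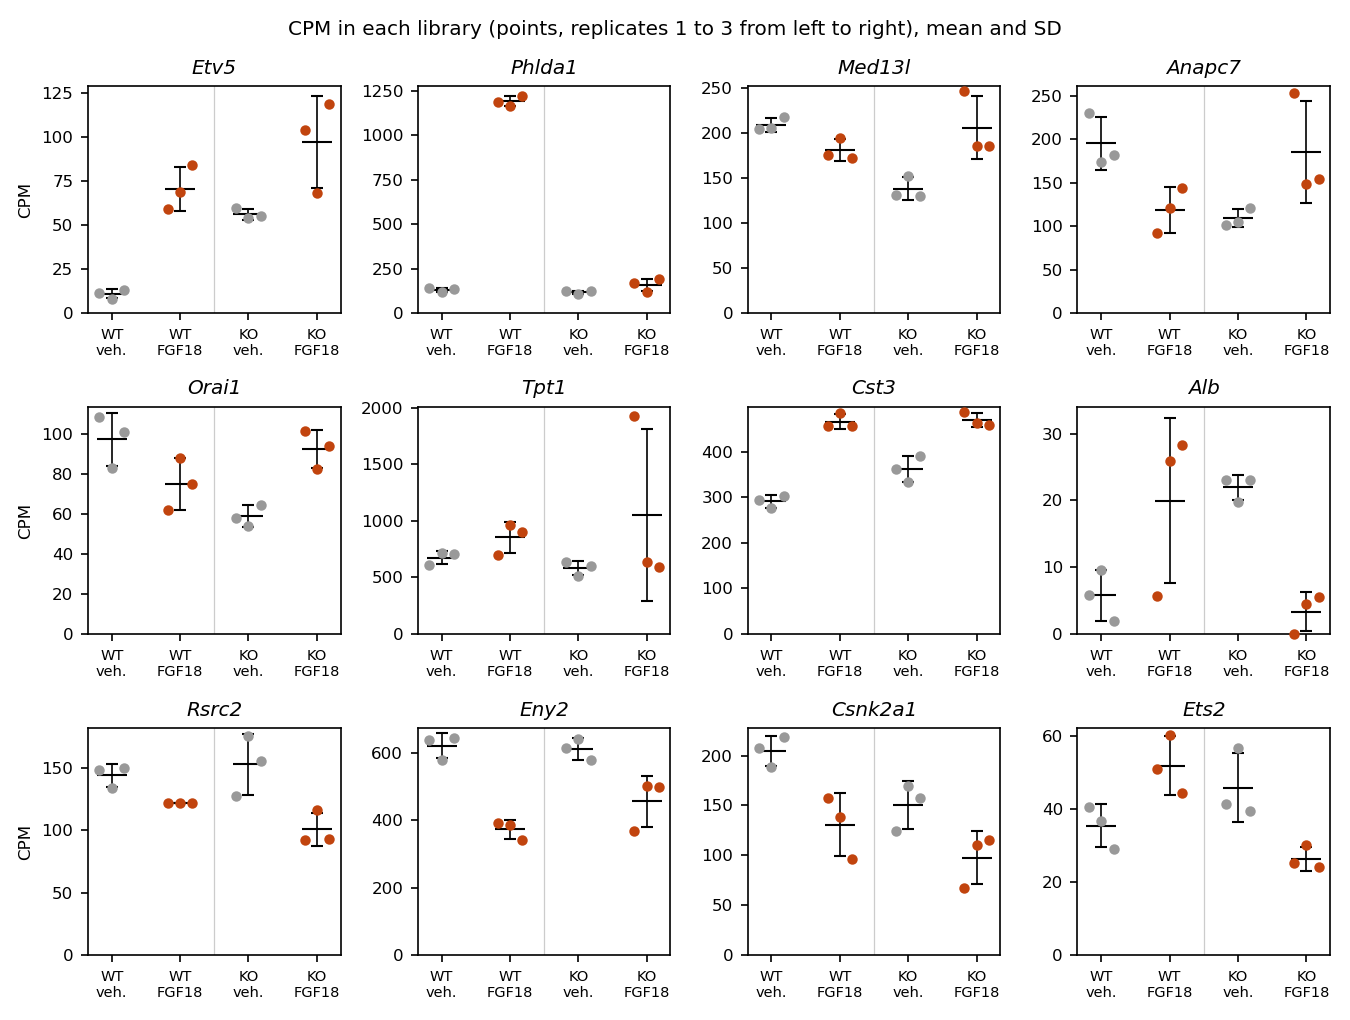
CPM of 12 genes in each of the 12 libraries (points, replicates 1 to 3 from left to right within a group), with the group mean and SD (n = 3), each panel starting at 0. Grey is vehicle (veh.), orange FGF18, and KO stands for FGFR3/4KO. For *Tpt1* the knockout difference rests on 1 library at 1923 CPM, whereas for *Cst3* and *Orai1* all 3 FGF18 libraries lie above the vehicle libraries.

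Downward, *Alb* had the lowest unadjusted p of the genes with a symbol and came after 2 genes without one. It encodes albumin, the main plasma protein made by the liver. *Alb* had 15, 7 and 21 reads with vehicle (22.98, 19.8 and 23.01 CPM) and 0, 5 and 6 reads with FGF18 (0, 4.43 and 5.53 CPM). The groups did not overlap, and the log2 fold change was -2.56 (standard error 0.62, interval from -3.83 to -1.29, unadjusted p = 0.000299, FDR = 0.622, edgeR). This was the only interval of the 7356 that lay wholly beyond a 2-fold change. *Alb* met the filter on low counts only through FGFR3/4KO vehicle and WT FGF18 libraries, where it is high, which favours a fall in the knockout. In WT RCS *Alb* was higher with FGF18, going from 5.77 ± 3.76 to 20.0 ± 12.4 CPM (SD over 3 libraries each). The WT groups overlapped, with WT FGF18 replicate 1 at 5.74 CPM. The effects differed (interaction -4.35, FDR = 0.000887, edgeR), but choosing *Alb* for its knockout change favours such a call. Of the 2 genes before it, ENSRNOG00000018454.7 had a like pattern, with 70.5, 70.8 and 52.6 CPM with vehicle and 14.5, 18.6 and 24.9 CPM with FGF18. Its log2 fold change was -1.68 (from -2.44 to -0.91, unadjusted p = 0.000117, FDR = 0.622, edgeR) in the knockout and 2.01 in WT RCS. The interaction was -3.68 (FDR = 3.24e-05, edgeR), which the choice of this gene favours likewise. The other, ENSRNOG00000060723.1, had 34, 27 and 58 reads with vehicle and 13, 34 and 35 with FGF18. After scaling the groups did not overlap, and its log2 fold change was -1.20 (from -1.77 to -0.63, unadjusted p = 0.000184, FDR = 0.622, edgeR). It fell in WT RCS too, by 1.21 on the log2 scale. All 3 genes passed with edgeR's likelihood-ratio test (FDR = 0.04, 0.04 and 0.0467), and ENSRNOG00000018454.7 passed with only the 6 FGFR3/4KO libraries (FDR = 0.0199, edgeR).

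Most of the other downward genes had estimates well under 2-fold. *Eny2*, a subunit of transcription and mRNA export complexes, had 616, 643 and 579 CPM with vehicle and 369, 502 and 498 CPM with FGF18. All FGF18 libraries lay below, with replicate 1 the lowest, and the log2 fold change was -0.41 (from -0.68 to -0.15, unadjusted p = 0.00391, FDR = 0.646, edgeR). It was -0.27 without FGF18 replicate 1. *Psmc1*, an ATPase of the proteasome cap, had 3504, 4051 and 3035 CPM and then 2691, 2733 and 2890 CPM, a log2 fold change of -0.35 (from -0.60 to -0.10, FDR = 0.752, edgeR) that became -0.22 without vehicle replicate 2. *Rsrc2* was at -0.58 (from -0.91 to -0.25), *Csnk2a1*, the catalytic subunit of casein kinase 2, at -0.59 (from -1.0 to -0.18), and *Slain2*, a microtubule growth factor, at -0.65 (from -1.12 to -0.19). Without FGF18 replicate 1 *Csnk2a1* was at -0.38, with an unadjusted p of 0.0513 (edgeR). *Cisd1*, a mitochondrial outer membrane iron-sulphur protein, was at -0.42 (from -0.70 to -0.13), *Msl3*, a histone acetyltransferase complex subunit, at -0.45 (from -0.79 to -0.11), and the RNA helicase gene *Ddx54* at -0.45 (from -0.80 to -0.09). For these 6 genes all FGF18 libraries lay below all vehicle libraries, as was the case for 6.29% of all genes tested. None passed, with FDR values from 0.622 to 0.752 (edgeR).

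*Ets2*, an ETS factor downstream of ERK, was another downward gene whose effect differed from that in WT RCS. It had 41.4, 56.7 and 39.4 CPM with vehicle and 25.05, 30.1 and 23.95 CPM with FGF18, a log2 fold change of -0.73 (from -1.26 to -0.20, FDR = 0.752, edgeR). In WT RCS it stood at 0.57, which did not pass, and the interaction was -1.30 (FDR = 0.0139, edgeR). *Ets2* was chosen for its low p in the knockout, whose change is part of the interaction, and this favours such a call. In contrast *Eny2*, *Cisd1*, *Csnk2a1* and *Psmc1* fell in WT RCS too, by 0.74, 0.46, 0.64 and 0.52 on the log2 scale, and their interactions did not pass.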

How the data were processed

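Per the labels and the methods, the authors trimmed QuantSeq 3′ reads with Trim Galore, aligned them with STAR to rn6 and counted them with htseq-count; versions are not given in the sources used here. The deposited values are raw counts per Ensembl gene. Rows that name no gene were removed; in the 6 libraries low-quality alignments were 71.2% to 74.6% of all reads and reads on no gene 8.45% to 9.96%. Groups came from the labels. All 12 libraries were fitted in edgeR 4.0.16 (R 4.3.3) by group mean, with TMM scaling, filterByExpr (minimum count 10, minimum total 15) and the quasi-likelihood test, and FDR under 0.05 as the threshold. CPM are reads per 1000000 after TMM scaling.

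Intervals are the estimate ± the t quantile times the standard error, which is the log2 fold change over the root of F, or, for changes under 0.01, comes from the fit's information. Equivalence used 2 one-sided tests. DESeq2 1.42.0, other scalings and filters, a replicate block and leaving out libraries were alternatives.

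Symbols came from a table of the study that pairs 1998 identifiers with names. Genes named were the 10 with the lowest p in each direction, the 5 largest changes each way in WT RCS, the 5 narrowest and 3 widest intervals, leading members of lists, genes with a symbol called under an alternative, and leading genes without one; some genes are not reported here, and where the rule met one, the next gene was taken. Members and lists were chosen with earlier results of these data known. Whether counting used strand is not given in the sources used here, so overlapping genes may share reads.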

Additional observations from a re-analysis of the deposited data

Results flagged for a closer look

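The following effects of FGF18 differed between the genotypes by edgeR's test of the interaction (FDR under 0.05; log2 interaction as FGFR3/4KO minus WT). The interaction was negative for *Scin* (-4.51), *Alb* (-4.35), *Cdkn2b* (-3.71), *Flot1* (-2.94), *Phlda1* (-2.74), *Etv5* (-1.86) and *Ets2* (-1.30). It was positive for *Tdrd5* (2.62), *Arhgap31* (2.33), *Foxm1* (1.70), *Anapc7* (1.46), *Tiprl* (1.44), *Orai1* (1.0) and *Med13l* (0.79). *Scin*, *Cdkn2b*, *Flot1*, *Phlda1*, *Tdrd5*, *Arhgap31* and *Foxm1* were chosen for their change in WT RCS, which is part of the interaction. *Alb*, *Etv5*, *Ets2*, *Anapc7*, *Tiprl*, *Orai1* and *Med13l* were chosen for their low p in FGFR3/4KO RCS, which is part of it too. None of the 14 passed in FGFR3/4KO RCS by itself. For *Anapc7* and *Tiprl* the knockout estimate rested in part on FGF18 replicate 1, and the interaction without that library was not tested. Whether a single library was outlying was not tested for these 14 genes.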

How the results depend on the processing

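The count of 0 genes in each direction held with upper-quartile and RLE scaling, DESeq2, the replicate block and each of the 6 fits without 1 library. Genes lower numbered 3 with the likelihood-ratio test (*Alb*, ENSRNOG00000018454.7 and ENSRNOG00000060723.1), 2 with only the 6 FGFR3/4KO libraries, 1 with a filter at 1 CPM in 3 libraries and 11 with no filter. The 2 were ENSRNOG00000018454.7 (FDR = 0.0199) and ENSRNOG00000049105.1 (FDR = 0.0426, edgeR), the latter averaging 360 ± 140 CPM without and 162 ± 25.7 CPM with FGF18 (SD over 3 libraries each). Genes higher numbered 9 with no filter, among them *Tpt1*, *Anapc7* and ENSRNOG00000012738.7 (FDR = 0.0484, edgeR). An unadjusted p under 0.05 was found for 478 genes, but for 286 with DESeq2, 784 with no filter, 769 at 1 CPM, and 285 without both libraries that stood apart, a choice made after seeing the data. Leaving out 1 library gave 365 to 624.

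Intervals within 2-fold numbered 5140 and ranged from 4114 to 5276 over these alternatives. As a share of the genes tested they were 69.7%, but 36.3% with no filter and 45.0% at 1 CPM, where 14534 and 11581 genes were tested. At a limit of 1.5-fold, 2273 intervals and 1671 equivalence tests passed. The median over genes induced in WT RCS (0.0572) was 0.099 at 1 CPM and 0.0631 to 0.0879 without 1 library. The median over inhibited genes (-0.0352) was reversed at 1 CPM (0.0106, with a median over all genes of 0.0356). It was -0.0123 with no filter, -0.0147 without both libraries that stood apart and -0.0429 to -0.00225 without 1 library. The median over all genes was 0.00671 in the main fit and -2.56e-15 with no filter. It was 0.0179 without both libraries and 0.00753 to 0.0328 without 1 library. In each of these fits the median over inhibited genes lay below that over all genes.

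Replicate numbers did not pair the libraries: deviations of same-numbered libraries correlated at -0.0206, -0.0657 and -0.00173 across genes. With the replicate block 444 genes had an unadjusted p under 0.05 and no call changed. None of the 20 leading genes changed sign, but they were chosen for their low p in these libraries. Where the groups did not overlap, leaving out a library could hardly change the sign. *Tpt1*, whose groups overlapped, had a lowest estimate of 0.000145 over the alternatives. With 1 library left out the fit assumes that the smaller group varies like the others.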

Other observations

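Outside the genes tested, some with more reads in WT RCS with FGF18 were at or near 0 reads in the knockout. *Ier3*, an immediate early gene, had 0 reads in all WT vehicle libraries, 13, 14 and 14 in the WT FGF18 libraries, and 2, 0 and 0 in the FGFR3/4KO vehicle libraries and 0, 0 and 2 in those with FGF18. *Col6a1*, a collagen VI chain, had 28, 11 and 5 reads with FGF18 in WT RCS, where vehicle gave 0, 0 and 1, and 0 in all FGFR3/4KO vehicle libraries and 0, 1 and 0 in those with FGF18. Others with more reads with FGF18 in WT RCS were not near 0 in the knockout. *Adamts4*, a matrix protease gene, went from 3, 3 and 4 to 12, 13 and 13 reads in WT RCS and had 0, 2 and 8 reads with vehicle and 8, 7 and 5 with FGF18 in the knockout. *Col1a1*, a collagen I chain, went from 0, 3 and 0 to 7, 8 and 18 reads in WT RCS and had 7, 2 and 11 and then 2, 5 and 10 reads in the knockout. These genes did not pass the filter on low counts, and no test was made.

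*Etv5* without FGF18 stood at 10.9 ± 2.49 CPM in WT vehicle and 56.1 ± 3.18 CPM in FGFR3/4KO vehicle libraries (SD, n = 3 each). Its level in the knockout without FGF18 thus lay close to that in WT RCS with FGF18, 70.6 ± 12.5 CPM. *Alb* likewise stood at 5.77 ± 3.76 CPM in WT vehicle and 21.9 ± 1.83 CPM in FGFR3/4KO vehicle libraries. These differences were not tested here, and choosing *Alb* for a fall from the knockout vehicle level favours a high value of that level.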
